A study of Homo sapiens with 4 samples.

Results

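S100 proteins are small calcium-binding proteins of vertebrates that usually act as dimers. Each subunit carries a pair of EF-hand loops, and calcium opens a surface through which the dimer binds its partner proteins. Some members act inside the cell on annexins, myosin or ezrin, others are released and bind receptors such as RAGE, and several are followed as markers of epithelial cancers. The 10 genes described here are S100A2, S100A3, S100A4, S100A6, S100A10, S100A11, S100A13, S100A14, S100A16 and S100P, the family members of epithelium and carcinoma. They were taken by name from the 19729 genes listed in each library, with earlier results of these data known. S100A4 is on the list also because it is known as a β-catenin target.

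The cells were HT-29, a human colorectal cancer cell line that is labelled microsatellite stable (MSS), BRAF-V600E and APC-mutant. One cell population was stably transduced by lentivirus with an shRNA that silences APC when doxycycline (DOX) is given (APC shRNA), and the other with a non-silencing shRNA (NonS). Both were used at passages 3 to 5 after transduction and both received 500 ng/ml DOX for 72 h, so the control carried a vector and the drug too. Biological duplicates, replicates I and II, were sequenced for each condition, giving 4 libraries. The APC shRNA and the population of cells that carries it cannot be told apart in this design. Nothing in the labels says whether duplicates came from separate cultures, so p-values measure the spread between these libraries.

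Each library holds 1 whole number per gene, with totals from 398338 to 413595. These values behave as a length- and depth-scaled score and not as read counts, so the read depth is unknown and no counting interval can be given. The log2(value + 1) of every gene with a mean value of at least 10 was compared between conditions with limma, and a gene was called at a Benjamini-Hochberg adjusted p under 0.05. Of 5376 genes tested, 233 were called higher and 199 lower in APC shRNA libraries, which is 8.04% of all genes. APC itself had a value of 3 in replicate I of NonS and of 0 in the other 3 libraries, too low for a check of the silencing. All 7 Wnt target genes tested (AXIN2, NKD1, NOTUM, SP5, ASCL2, RNF43 and ZNRF3) were called higher, beside 4.33% of all genes tested. The paper already names AXIN2, NKD1, NOTUM, SP5 and ASCL2 as upregulated in this RNA-Seq experiment, so their calls are no independent check. Epithelial KRT8, KRT18 and EPCAM were high in every library. CDX1 was listed at 2 in both NonS libraries against 0 in both APC shRNA libraries. CDX2 went the other way, from 0 in both NonS libraries to 2 and 4 in APC shRNA libraries. All 6 fibroblast and all 3 endothelial markers were listed at 0 in every library. Of 6 leukocyte markers, 4 were listed at 0 throughout. CD14 was at 1 to 4, and LYZ, also a product of intestinal epithelium, at 614 to 906.

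Under these conditions the S100 family of HT-29 cells consisted mainly of S100A6 and S100A4. These genes together made up between 70.4% and 75.6% of the summed value of the 10 genes in each library. In NonS cells S100A6 (calcyclin) was highest and S100A4 (metastasin) came next, followed by S100A11 (calgizzarin), S100A10 (p11, the partner of annexin A2) and S100P, the member first found in placenta. S100A16, S100A13, S100A14, S100A2 and S100A3 followed in falling order. Among neighbours in this order, only S100A6 and S100A4 had overlapping NonS libraries. Dividing the values by transcript length once more exchanged only S100A13 and S100A14. The order in APC shRNA libraries differed: S100A4 stood above S100A6, although their libraries overlapped, and S100P moved from rank 5 to rank 7, below S100A16 and within the range of S100A13.

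Of the 10 genes, 9 passed the filter on the mean. S100A10 and S100P were called lower after APC silencing, 0 were called higher and 7 were not called. Called lower were 2 of these 9, beside 3.7% of all genes tested, and called higher were 0 of 9, beside 4.33%. The median difference over the 9 genes was -0.18 on the log2(value + 1) scale, beside 0.03 over all genes tested. In 4 of the 9 both APC shRNA libraries lay below both NonS libraries, beside 27.5% of all genes, and in 0 of the 9 both lay above, beside 33%. Separation in either direction was seen in 60.5% of all genes, so separation alone was common here. In bulk RNA, fewer cells that express a gene and less RNA per cell cannot be told apart.

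**Figure D1:**
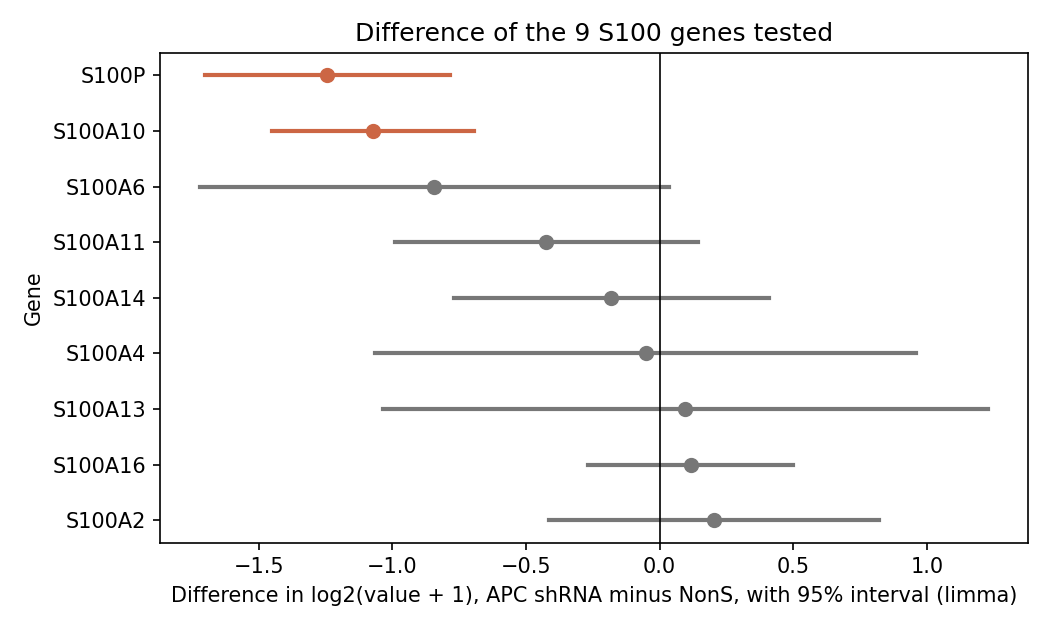
Difference in log2(value + 1) between APC shRNA and NonS libraries for the 9 S100 genes tested, with the 95% interval from limma (2 libraries against 2). Orange marks the genes called at an adjusted p under 0.05, S100P and S100A10, whose intervals end below 0. The intervals of the other 7 genes include 0, and those of S100A13, S100A4 and S100A6 are the widest.

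S100P, a secreted member that binds RAGE and, inside the cell, ezrin, showed the largest difference. It lies on chromosome 4 of GRCh38 from 6693069 to 6697170 on the plus strand, apart from the other members. Its value was 154 in replicate I and 191 in replicate II of NonS, against 68 and 76 in those of APC shRNA. Both APC shRNA libraries were thus well below both NonS libraries, and the gap between conditions was larger than the gap between replicates in either. The mean fell from 172.5 ± 26.2 to 72 ± 5.66 (SD, n = 2 each). On the log2(value + 1) scale S100P fell by 1.24 (standard error 0.15, 95% interval -1.70 to -0.79, adjusted p = 0.048 in limma), a 2.37-fold decrease. With each library left out in turn the difference was between -1.40 and -1.09, but no gene of the whole table was called in those smaller fits, where 1134 to 1310 genes had an unadjusted p under 0.05.

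S100A10 has lost the ability to bind calcium and stays in the open form. It joins annexin A2 (ANXA2) in a complex at the cell membrane that binds plasminogen. The gene lies on chromosome 1 from 151982915 to 151994390 on the minus strand. Values were 486 and 587 in NonS libraries and 249 and 258 in APC shRNA libraries. The APC shRNA replicates almost coincided, far below the NonS replicates. S100A10 fell by 1.07 on the log2(value + 1) scale (standard error 0.12, 95% interval -1.45 to -0.69, adjusted p = 0.0465 in limma), a 2.10-fold decrease. It stayed between -1.21 and -0.94 with each library left out. Both calls sit close to the threshold: when genes with a mean of at least 8 were tested, the adjusted p was 0.0508 for S100A10 and 0.0513 for S100P in limma, and neither was called (2.28% of all genes were called lower in that fit).

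S100A6, which binds the calcyclin-binding protein CACYBP, was the most abundant member in NonS cells. It lies on chromosome 1 from 153534599 to 153536244 on the minus strand and shares 23 exonic bp with the antisense gene BX470102.1. Its values were 2019 and 3015 in NonS libraries and 1201 and 1573 in APC shRNA libraries. The conditions did not overlap, but each pair of replicates was far apart. The difference was -0.84 (standard error 0.28, 95% interval -1.72 to 0.03, adjusted p = 0.148 in limma) and did not pass the threshold. S100A11, which binds annexin A1 (ANXA1), had values of 605 and 788 in NonS and 477 and 555 in APC shRNA libraries. These did not overlap either, and the difference of -0.42 was not called (95% interval -0.99 to 0.14, adjusted p = 0.211 in limma).

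S100A4, a cytoplasmic and secreted protein that binds the non-muscle myosin heavy chain MYH9 and is linked to cell motility, lies on chromosome 1 from 153543613 to 153550136 on the minus strand. It was listed at 1437 and 2201 in NonS libraries against 1431 and 2056 in APC shRNA libraries. Replicates I were nearly equal between conditions, replicates II were nearly equal too, and the gap between replicates exceeded the gap between conditions. Its difference was -0.05 (standard error 0.33, adjusted p = 0.923 in limma), with a 95% interval from -1.06 to 0.96. The lower end of this interval lies close to the difference of S100A10 and above that of S100P. The difference turned to 0.26 without NonS replicate II and to 0.21 without APC shRNA replicate I.

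The remaining tested members showed overlapping conditions. S100A13, which takes part in the release of FGF1 without a signal peptide, was listed at 53 and 85 in NonS libraries against 58 and 89 in APC shRNA libraries (difference 0.10, 95% interval -1.04 to 1.23). Its exons share 536 bp with AL162258.1 on the same strand and 235 bp with S100A1 on the other strand, and the counting could have split or dropped reads there. S100A16, a widely expressed member, had values of 113 and 137 in NonS and 132 and 138 in APC shRNA libraries (difference 0.12, 95% interval -0.27 to 0.50). This was the narrowest interval among the 7 genes not called. S100A14, a member of epithelial membranes, was listed at 36 and 49 and then at 35 and 39 (difference -0.18, 95% interval -0.77 to 0.41). S100A2, a member found mainly in the nucleus, was listed at 8 and 11 and then at 10 and 12 (difference 0.20, 95% interval -0.42 to 0.82). S100A3, a cysteine-rich protein of the hair cuticle, was at 1 in both NonS libraries against 2 in both APC shRNA libraries, under the filter. A step of 1 is the smallest these rounded values can show.

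For S100A4, S100A13, S100A16, S100A14 and S100A2, leaving out 1 library turned the sign of the difference, whereas it stayed negative for S100P, S100A10, S100A6 and S100A11 in each of these fits. In all 9 tested members the value of replicate II was above that of replicate I in both conditions, which held for 36.0% of all genes tested (1933 of 5376). The ratio of replicate II to replicate I was 1.60 in NonS and 1.53 in APC shRNA libraries for S100A13, 1.53 and 1.44 for S100A4, 1.49 and 1.31 for S100A6, and 1.21 and 1.04 for S100A10. Over all genes the median log2 gap was 0 in NonS and 0.04 in APC shRNA libraries. A larger rise from replicate I to replicate II than that of S100A4 in both conditions was found for 1.67% of all genes, and than that of S100A10 for 11.7%. Genes with a large fall from replicate I to replicate II are not part of these shares. The summed value of the 10 genes was 4912 and 7065 in NonS and 3663 and 4798 in APC shRNA libraries, so that replicate I of NonS and replicate II of APC shRNA lay close together.

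Ratios within a library do not depend on how the libraries are scaled. The 8 ratios computed were chosen after the values were seen and carry no test; an exact two-sided permutation test of 2 libraries against 2 cannot give a p under 0.333. The ratio of S100A4 to S100A6 was 0.712 and 0.730 in NonS and 1.19 and 1.31 in APC shRNA libraries. The replicate gap had thus nearly cancelled, and the mean ratio differed 1.73-fold between conditions. The ratio of S100A10 to its partner ANXA2 was 0.765 and 0.757 in NonS and 0.485 and 0.490 in APC shRNA libraries. ANXA2 itself was listed at 635 and 775 in NonS libraries against 513 and 527 in APC shRNA libraries and was not called (difference -0.43, adjusted p = 0.124 in limma). S100A10 was thus lower also relative to ANXA2, and the replicates differed in this ratio by far less than the conditions. The ratio of S100P to ezrin (EZR), the linker of membrane and actin, was 0.981 and 1.01 in NonS and 0.636 and 0.661 in APC shRNA libraries. The ratio of S100A10 to S100P, the genes called, was 3.16 and 3.07 in NonS and 3.66 and 3.39 in APC shRNA libraries. That of S100A10 to S100A11, its neighbour on chromosome 1, was 0.803 and 0.745 in NonS and 0.522 and 0.465 in APC shRNA libraries. Ratios of S100A11 to ANXA1 and of S100A6 to CACYBP overlapped between conditions. That of S100A4 to MYH9 did not, at 12.4 and 17.2 in NonS and 8.73 and 12.2 in APC shRNA libraries, values that nearly touch.

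**Figure D2:**
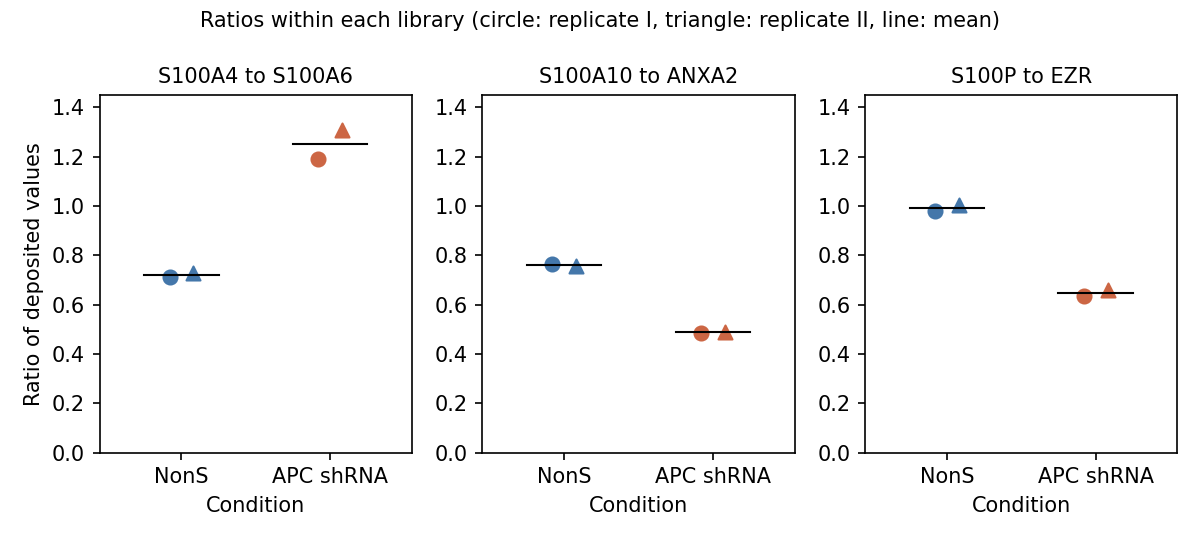
Ratio of deposited values within each library for S100A4 to S100A6, S100A10 to ANXA2 and S100P to EZR. Circles are replicate I, triangles replicate II and lines the mean of each condition, with NonS in blue and APC shRNA in orange. The first ratio is higher in APC shRNA libraries (1.19 and 1.31 against 0.712 and 0.730) and the other ratios are lower.

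Among 22 S100 partners and receptors, 14 were tested and 0 were called lower in limma, beside 3.7% of all genes tested. Negative differences at an unadjusted p under 0.05 were found in 4 of the 14 (AHNAK, EZR, ANXA2 and PLAUR), beside 15.8% of all genes tested. MYH9 and BSG, a surface receptor, had positive differences of 0.44 and 0.15 that did not pass (adjusted p = 0.0669 and 0.2 in limma). AHNAK, a large scaffold protein that binds the complex of S100A10 and annexin A2, was listed at 63 and 76 in NonS libraries against 35 and 28 in APC shRNA libraries (difference -1.12, adjusted p = 0.0584 in limma). EZR was at 157 and 190 and then at 107 and 115 (difference -0.63, adjusted p = 0.0775 in limma). CACYBP was at 21 and 17 and then at 15 and 13 (difference -0.41, adjusted p = 0.164 in limma). The gene of RAGE, AGER, was at 2 in every library. S100P and S100A14, which are among the members that bind RAGE, were thus expressed in cells with little AGER RNA. Of 8 epithelial markers tested, 1 was called, beside 8.04% of all genes tested. This was LGALS4, a galectin of enterocytes, which was lower (557 and 646 in NonS, 175 and 147 in APC shRNA libraries, difference -1.90, adjusted p = 0.0423 in limma). The other 7 had differences in both directions: CDH1 was at -0.44 and KRT19 at -0.27, KRT20 was at 0.0042, and EPCAM, KRT8, VIL1 and KRT18 were between 0.09 and 0.31. VIL1 and KRT18 had both APC shRNA libraries above both NonS libraries, and CDH1 had both below. The part of these markers in the S100 differences was not tested.

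The other 11 S100 genes were all under the filter. S100A7, S100A7A, S100A7L2, S100A8, S100A9, S100A12, S100B, S100G and S100Z were listed at 0 in every library. Among them are the subunits of calprotectin (S100A8 and S100A9), abundant in neutrophils. A rounded value of 0 does not show that reads were absent. S100A5, next to S100A6 in the cluster, was listed at 6 and 7 in NonS libraries against 3 in both APC shRNA libraries. S100A1 was at 1 in both NonS libraries against 2 in both APC shRNA libraries.

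All members but S100P lie in the S100 cluster of chromosome 1, where S100A10 and S100A11 sit at one end and S100A2 to S100A6, S100A16, S100A14 and S100A13 follow further along. Of 21 other genes listed in and beside the cluster, 12 were tested and 0 were called in limma, beside 8.04% of all genes tested. Differences of the 12 ran from -0.31 for TPM3 to 0.46 for RAB13. All 12 lie at the end of the cluster that holds S100A13, far from S100A10. An unadjusted p under 0.05 was found for 4 of the 12, beside 35.6% of all genes tested. Values were 33 and 38 in NonS and 48 and 50 in APC shRNA libraries for RAB13, and 158 and 165 and then 123 and 138 for TPM3. CREB3L4 (0.44) and RPS27 (0.38) had the next highest differences, and JTB was at -0.15. Beside S100P on chromosome 4, 4 of 10 genes were tested and 0 were called in limma, beside the same 8.04%. Of these 4, 1 had an unadjusted p under 0.05, beside the same 35.6%. That gene was TBC1D14, with a positive difference of 0.32. MRFAP1 and MRFAP1L1 also had positive differences, of 0.29 and 0.34, and GRPEL1 was the lowest at -0.22.

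Promoter sequence of all 10 members was found in RefSeq (GRCh38.p14), as windows from 250 bases before to 50 bases after each annotated start. They were searched on both strands for short motifs. CTTTGAT is the motif of the TCF/LEF factors through which β-catenin acts. TGACTCA is that of the AP-1 factors of growth signalling, and GGGCGG, the GC box, is bound by SP1 and its relatives. TATAAA is the TATA box, and TGACGT is the core of the cAMP response element. The TCF/LEF motif was in the windows of 0 of 10 members, S100A4 included, and in 3.18% of 27305 genes. The GC box was found in 6 of 10 members (48.3% of all genes) and the TATA box in 3 of 10 (13.99%), namely S100A4, S100A13 and S100P. The AP-1 motif was found in S100A2 and S100A3 (6.05% of all genes) and the core of the cAMP response element in S100P (9.64%). Among the motifs searched, S100P and S100A10 carry different ones. The stretches that hold the GC box or TATA box are shown for the 5 members most abundant in NonS libraries. Each is 30 bases, 5′ to 3′ on the gene's strand, with the motif in capitals.
S100P (chr4:6693843-6693872, plus strand, called lower): gctgcctTATAAAgcaccaagaggctgcca
S100A10 (chr1:151994010-151994039, minus strand, called lower): aacgctctgtctgGGGCGGgcgaggcctct
S100A6 (chr1:153536055-153536084, minus strand, not called): cgcGGGCGGgacttGGGCGGGCGGggtggg
S100A11 (chr1:152037055-152037084, minus strand, not called): ggaggcggggagGGGCGGggcaggcgcgga
S100A4 (chr1:153545812-153545841, minus strand, not called): ggggTATAAAtaggtcagacctctgggccg
S100P and S100A4 each hold a TATA box, at -28 and -31 from the start. S100A10 and S100A6 hold GC boxes, with 3 copies in S100A6, of which the last 2 overlap. The 250 bases before the start held 71.2% G and C in S100A10, 70% in S100A6 and 55.6% in S100P. The windows of S100P, S100A10, S100A6 and S100A4 lie inside an exon of a longer GENCODE v29 transcript, so that the start used in these cells is not known from these data. A match is only a description of letters, and its absence says nothing of more distant sites. The part of these motifs in the differences was not tested.

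Over the 4 libraries, the genes closest in profile to S100P, by Euclidean distance of log2(value + 1) centred on each gene's mean, were CORO2A (distance 0.0118), EHD2 (0.0753) and LDLRAD2 (0.0774). CORO2A, a coronin of the actin cytoskeleton, was listed at 19 and 24 in NonS libraries against 8 and 9 in APC shRNA libraries, the same step down as S100P at a lower level. EHD2, an ATPase of caveolae, was at 35 and 41 and then at 14 and 16. For S100A2, which had the highest difference of the tested members without being called, the closest were ENC1 (0.0464), WDR54 (0.0536) and TMEM160 (0.0550). With 4 libraries such likeness describes the values and is not a test.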

How the data were processed

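Polyadenylated RNA of 4 HT-29 libraries, 2 NonS and 2 APC shRNA, was measured by 50 bp single-read sequencing. The authors filtered reads, trimmed polyA tails, mapped with TopHat2 to genome assembly 38 (the submitters' processing notes list hg19), counted with htseq-count on GENCODE v29 and ran DESeq2 1.4.1. Whether counting used strand is not given in the sources used here. The deposited values, 1 whole number per gene, were treated as a score: replicates of low genes varied 0.484 (NonS) and 0.363 (APC shRNA) times as much as Poisson counts, and value times longest-transcript length varied by 0.227% between libraries, against 1.74% for totals. The authors' deposited comparison (mean, fold change, adjusted p) was not used. The number of per-sample columns not used was 0.

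Values as deposited were compared with limma 3.58.1 (R 4.3.3, mean-variance trend) on log2(value + 1), which understates changes of low genes, tested on simulated data first. No count model was run. Members and lists were chosen with earlier results of these data known, as was the threshold of 0.05 on the adjusted p (at 0.01, 0 genes were called and 1912 had an unadjusted p under 0.05). Named were all members, other S100 genes, the partners with the smallest p in each direction (plus ANXA2, AGER and CACYBP), the most changed neighbours, Wnt targets and the genes nearest in profile. LGALS4 was named after its values were seen. The result for 1 partner gene is not reported here. Positions, lengths and exons come from GENCODE v29 (GRCh38), which holds 19502 of the 19729 genes, and promoters from RefSeq. Figures and summaries used Python 3.11.15 and pandas 2.3.3.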

Additional observations from a re-analysis of the deposited data

How the results depend on the processing

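S100P and S100A10 were lower and S100A6 and S100A11 had negative differences under every alternative run. Numbers of genes called higher and lower, 233 and 199, became 310 and 305 after median-of-ratios scaling, 343 and 369 after equalising totals and 336 and 349 with upper-quartile scaling. They became 368 and 352 with robust moderation, 438 and 453 with GC content correction and 356 and 331 with gene length correction. Each of these kept 2 S100 genes called lower, beside 5.67% to 8.43% of all genes tested. At least 10 in every library gave 139 and 134 of 4682 genes tested (2.86% lower) with 2 S100 genes, without S100A2. A mean of at least 8 gave 0 S100 genes (2.28% of 6145 genes tested were lower). An adjusted p under 0.01 gave 0 genes of any kind in limma (1912 at an unadjusted p under 0.05). A total of at least 1 gave 952 and 515 of 12799 genes tested (7.44% higher and 4.02% lower). There 0 S100 genes were lower and 1 was higher, S100A3, whose replicates hold equal values.

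Same-numbered libraries deviated together (correlation of the gaps between replicates 0.724 across genes), but no label ties a replicate number to a batch. With the replicate block, 523 genes were higher and 500 lower (9.3% of genes lower), and S100A6 joined S100P and S100A10 at an adjusted p of 0.0480 in limma. Block and median-of-ratios scaling together gave 1257 and 1311 (24.4% lower) and block and GC content correction 1269 and 1274 (23.7% lower), each with 4 S100 genes lower, S100A11 included.

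Fits that each left out one replicate called 0 genes of any kind in limma, since 1 residual degree of freedom was left and the lone library was assumed to vary like the other group. In these fits S100A2 ranged from -0.0050 to 0.41 (3 fits, since without APC shRNA replicate II its mean was under the filter), S100A4 from -0.36 to 0.26 (0.21 without APC shRNA replicate I), S100A13 from -0.24 to 0.43 (-0.21 without APC shRNA replicate II), S100A14 from -0.40 to 0.036 and S100A16 from -0.021 to 0.25. Of the 9 tested members, 4 to 6 were separated downward and 0 to 3 upward, beside 34.5% to 37% and 38.3% to 45.1% of all genes, and the log2 ratio of the summed value, -0.50, ranged from -0.74 to -0.22. The cause was not tested. DESeq2 and edgeR were not run, since the values are not counts. Rounding limits S100A3 and S100A2, where a step of 1 is large beside the value.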
